A study of Mus musculus with 6 samples.

Results

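The report describes 7 genes of heme breakdown and iron handling, Hmox1, Hmox2, Blvra, Blvrb, Fth1, Ftl1 and Tfrc, in primary mouse embryonic fibroblasts exposed to hydrogen peroxide. They were chosen by name, as every non-control probe whose gene name is one of the 7. This gave 8 probes in 17 spots on each array, out of 41174 probes with 27670 gene names. RNA was measured on 6 one-colour Agilent arrays. There were 2 arrays of untreated fibroblasts (0 h), 2 of fibroblasts after 2 h in 1 mM H2O2 and 2 after 4 h in 1 mM H2O2. The labels give no strain, genotype, sex or embryonic age, and all groups were grown in the same serum-containing medium. The design names 2 separate experiments for each time point without saying whether they used other embryos, cultures or days, so p-values measure the spread between these arrays, which may be technical. Untreated cells were measured at 0 h only, so H2O2 and time in culture cannot be told apart.

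As background, heme oxygenases open the heme ring and release iron, carbon monoxide and biliverdin, and biliverdin reductases turn biliverdin into bilirubin. Hmox1 encodes the inducible heme oxygenase, a textbook oxidative stress gene of fibroblasts whose transcription is driven by Nfe2l2 with small Maf proteins and held down by Bach1, while Hmox2 encodes the form made in most cells without induction. Blvra and Blvrb encode 2 unrelated reductases that act on biliverdin. The freed iron can be stored inside ferritin, a shell of heavy (Fth1) and light (Ftl1) chains, and iron enters cells through the transferrin receptor, Tfrc. Iron regulatory proteins bind stem-loops in the ferritin and Tfrc messages and act in opposite ways on ferritin translation and Tfrc message stability, so message levels of ferritin do not give its protein level.

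The stretches just before the start sites of 3 members show the DNA that the searches below read, the ferritin pair because both chains were measured together, and Blvra because it held the single match to the antioxidant response element core. Sequences are RefSeq's, on build GRCm38.p6, 5′ to 3′ on the gene's strand, and capitals mark a match to a searched motif.
Fth1 (chr19:9982396-9982645, plus strand, before the more downstream of 2 listed starts): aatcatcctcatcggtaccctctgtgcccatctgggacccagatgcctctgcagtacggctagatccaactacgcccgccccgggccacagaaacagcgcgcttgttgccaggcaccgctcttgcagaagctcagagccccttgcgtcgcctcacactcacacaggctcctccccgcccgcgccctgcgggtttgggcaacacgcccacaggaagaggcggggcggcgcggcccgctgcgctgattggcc
Ftl1 (chr7:45459887-45460136, minus strand): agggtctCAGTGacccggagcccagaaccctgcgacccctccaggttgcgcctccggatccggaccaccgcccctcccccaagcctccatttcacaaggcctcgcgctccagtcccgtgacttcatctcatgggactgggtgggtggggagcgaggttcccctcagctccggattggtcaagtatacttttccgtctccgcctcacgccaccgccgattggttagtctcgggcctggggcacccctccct
Blvra (chr2:127070407-127070656, plus strand): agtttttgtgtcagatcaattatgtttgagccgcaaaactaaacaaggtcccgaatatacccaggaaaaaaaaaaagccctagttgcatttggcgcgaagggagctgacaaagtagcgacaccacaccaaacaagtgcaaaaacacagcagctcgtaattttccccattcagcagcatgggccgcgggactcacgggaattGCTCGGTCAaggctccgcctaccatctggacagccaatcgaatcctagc
Of the 7 genes 6 were in the promoter table, with 11 start sites, and Hmox1 was not. Windows ran from 250 bases before to 50 bases after a start. The core of the antioxidant response element, TGACNNNGC on either strand, was found in the Blvra window alone, as GCTCGGTCA on the reverse strand at position -49 from the start, and 12.4% of all 32851 windows hold such a match. A longer stress response element of 10 fixed letters, searched on both strands, was in none of the 11 windows and in 0.155% of all windows. The letters CAGTG, which form the loop of an iron responsive element in RNA, were searched on the gene's strand and matched once, at position -243 from the Ftl1 start and so before the message begins, against 34.7% of all windows. Since the windows end 50 bases after a start, nearly all of each message was not searched. The CAGTG search therefore cannot show whether the messages of these genes hold the element. These matches describe letters in a window and not sites that a factor was seen to bind.

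Arrays of one group correlated at 0.992 to 0.994 over 17161 genes, the 75th percentile of signal ranged from 674 to 883, and between 57.3% and 68.0% of spots were well above background, with no saturated spot. All 10 fibroblast markers tested for were well above background on all 6 arrays. Their summed signal was 849 to 889 times the 75th percentile in untreated cells, 1050 to 1060 at 2 h and 985 to 1030 at 4 h. At 2 h 5 of them rose and 1 fell, and at 4 h 4 rose and 1 fell. Of 9 macrophage markers 6 were above background on all arrays and Cd163 on none, with summed values of 2.49 to 2.57, 2.82 to 2.95 and 3.07 to 3.22, and 3 of them rose at each time. Of 8 erythroid markers on the array 4 were above background on all 6 arrays and 3 on none, Klf1 and Gata1 among them. Their summed values were 0.440 to 0.694, 0.794 to 0.973 and 0.562 to 0.862, and 2 rose at 2 h and 1 at 4 h. Of 6 endothelial markers 3 were above background on all arrays and Cdh5 on none, with summed values of 0.459 to 0.525, 0.872 to 0.978 and 0.882 to 0.893, and 3 rose at 2 h and 2 at 4 h. Of 5 epithelial markers 3 were above background on all arrays and Epcam on none, with summed values of 2.94 to 3.26, 3.76 to 4.14 and 3.62 to 4.11, and 3 rose at each time. Tested for change were 8 macrophage, 4 erythroid, 5 endothelial and 4 epithelial markers, of which 0 fell. Of all genes tested 23.8% rose at 2 h and 24.7% at 4 h. The part of other cell types in the results was not tested. In bulk RNA, fewer cells of a type and less RNA per cell cannot be told apart. The arrays lay on 2 slides, each scanned once and holding 1 array of each time, with a given time in the same position on both slides, so that position and time cannot be told apart.

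**Figure D1:**
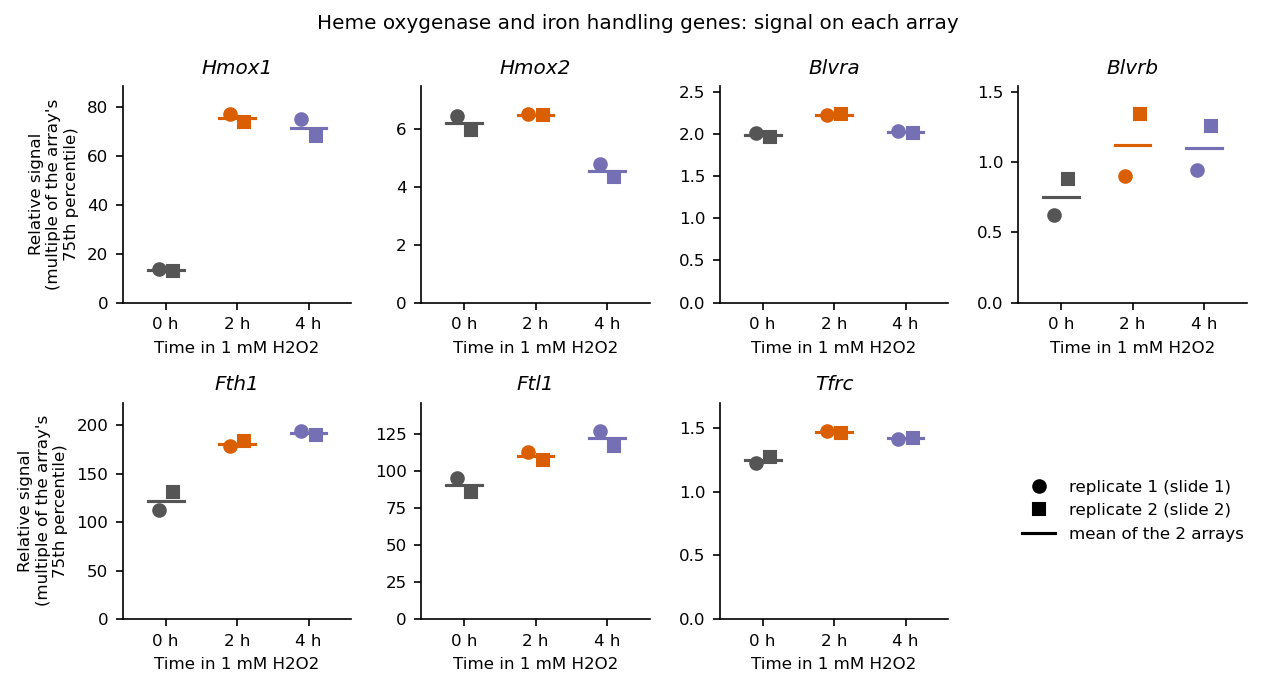
Signal of the 7 genes on each array, as a multiple of that array's 75th percentile (linear axes from 0), for 0 h, 2 h and 4 h in 1 mM H2O2. Circles are replicate 1, squares replicate 2 and bars the mean of both arrays. Hmox1 stood at 13.0 and 13.9 without treatment and between 68.0 and 77.0 in the 4 treated samples, and Blvrb was higher in replicate 2 at every time.

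Signals are given below relative to the array's 75th percentile, so a value of 1 equals that percentile, and levels are compared between times within a gene and not between genes, since each probe has its own brightness. Changes are log2 differences of group means with their standard error (SE), from 1 limma model of all 6 arrays, and a gene is called past the test at a Benjamini-Hochberg adjusted p under 0.05 over the 17184 genes tested. At 2 h, 3 of the 7 genes rose (Hmox1, Fth1 and Tfrc) and 0 fell, while 23.8% of all genes tested rose and 15.3% fell, 39.1% in either direction. At 4 h, 4 rose (Hmox1, Fth1, Ftl1 and Tfrc) and 1 fell (Hmox2), with 24.7% of all genes rising and 18.5% falling, 43.2% together. Between 2 h and 4 h, 1 gene fell (Hmox2) and 0 rose, against 16.5% and 13.4% of all genes, 29.9% together. At 2 h the count is near the background share. At 4 h 5 of 7 is above it, but over so few genes the count by itself is no result about them. The groups did not overlap for 7 of 7 genes in both comparisons with untreated cells and for 5 of 7 between the treated times, and for 75.5%, 73.3% and 67.1% of all genes. The median change of the 7 was 0.28 at 2 h and 0.43 at 4 h, and that of all genes was 0.12 and 0.07.

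Hmox1, the enzyme that cleaves heme on induction, had the largest change of the 7 by a wide margin. Its relative signal was 13.9 and 13.0 in the 2 untreated samples, 77.0 and 73.7 at 2 h, and 74.9 and 68.0 at 4 h. All 4 treated samples lay far above both untreated ones, and the 2 h and 4 h values overlapped. The rise was 2.48 ± 0.08 (log2, SE, n = 2 per group) at 2 h, a 5.60-fold increase with a limma adjusted p of 0.00019. At 4 h it was 2.41 ± 0.08, or 5.30-fold, with a limma adjusted p of 0.000263. Slides gave 2.47 and 2.50 at 2 h, and 2.43 and 2.38 at 4 h. Sorted from the most increased, Hmox1 was gene 521 of 17184 at 2 h and gene 412 at 4 h. The difference between the treated times was -0.08 (95% confidence interval -0.28 to 0.13, limma adjusted p 0.502), so a further rise or a decline of more than those bounds was not seen. The rise passed the test in each of the 20 alternative settings tried, between 2.03 and 2.53 at 2 h and between 2.14 and 2.48 at 4 h. A separate probe annotated as a partial heme oxygenase message was above background on no array.

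Hmox2, the heme oxygenase that cells make without induction, fell, and only by 4 h. Its relative signal was 6.46 and 5.99 in untreated cells, 6.53 and 6.49 at 2 h, and 4.80 and 4.35 at 4 h. Both 4 h samples lay below all 4 others, and at 2 h both values lay just above the untreated ones. The 2 h change was 0.07 ± 0.08 (95% confidence interval -0.14 to 0.27, limma adjusted p 0.534). By 4 h the message was 1.36-fold lower than in untreated cells, a log2 change of -0.44 ± 0.08 (limma adjusted p 0.0122), and 1.42-fold lower than at 2 h, -0.51 ± 0.08 (limma adjusted p 0.0118). Slides gave -0.43 and -0.46 for 4 h against 0 h. The 4 h fall kept its direction in all 20 alternatives and lost the call in 2, without untreated replicate 1 (limma adjusted p 0.0632) and with normexp and the 75th percentile (limma adjusted p 0.0693). The 4 h minus 2 h difference lost the call without 2 h replicate 1 or 2 h replicate 2 (limma adjusted p up to 0.0667). At 2 h the sign depends on the scaling: without any scaling Hmox2 was lower by 2 h already, -0.27 with a limma adjusted p of 0.0232.

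The biliverdin reductases changed little or with wide error. Blvra, which reduces the biliverdin that heme oxygenase makes, had relative signals of 2.01 and 1.96 untreated, 2.22 and 2.23 at 2 h, and 2.03 and 2.01 at 4 h. The 2 h values were the highest and the 4 h values lay just above the untreated ones. Its changes were 0.17 ± 0.05 at 2 h (limma adjusted p 0.0603) and 0.03 ± 0.05 at 4 h (limma adjusted p 0.688). With slide as a block the 2 h change passed the test (limma adjusted p 0.0339, SE 0.04), with 0.15 and 0.19 on the slides. The other Blvra probe, designed on a cDNA of a hypothetical protein, was above background on 2 of 6 arrays, untreated replicate 1 and 4 h replicate 2, and was not tested.

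Blvrb, the reductase abundant in fetal liver and red cells, had relative signals of 0.626 and 0.881 untreated, 0.901 and 1.34 at 2 h, and 0.943 and 1.26 at 4 h. Replicate 2 was higher than replicate 1 at every time, by 0.49, 0.57 and 0.41 on the log2 scale, while the median gap between replicates over all genes was 0.102, 0.099 and 0.126. Without regard to slide the change was 0.57 ± 0.29 at 2 h (limma adjusted p 0.182) and 0.55 ± 0.29 at 4 h (limma adjusted p 0.188), and Blvrb did not pass. Within slides the changes were alike, 0.53 and 0.61 at 2 h and 0.59 and 0.51 at 4 h. With slide as a block Blvrb passed at both times, with limma adjusted p of 0.00726 and 0.00685 and an SE of 0.06. The call for Blvrb therefore rests on treating slide as a block. The summed signal of the erythroid markers was higher in treated cells too at 2 h, 0.794 to 0.973 against 0.440 to 0.694 untreated, and overlapped with untreated at 4 h (0.562 to 0.862), with 4 markers above background on all arrays and 3 on none, Klf1 and Gata1 among them. Their part in the Blvrb values was not tested.

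Fth1 rose at both times and Ftl1 at 4 h, and these calls depended on the scaling. Fth1, the chain that oxidises iron for storage, had relative signals of 112.5 and 130.9 untreated, 178.5 and 183.7 at 2 h, and 194.4 and 190.0 at 4 h. All treated values lay above both untreated ones. The increase was 0.58 ± 0.09 at 2 h (1.49-fold, limma adjusted p 0.00955) and 0.66 ± 0.09 at 4 h (1.58-fold, limma adjusted p 0.00595). Slides gave 0.67 and 0.49 at 2 h. Without 2 h replicate 2 the 2 h call was lost (limma adjusted p 0.0568). The 2 h call was also lost under 5 of the 6 other scalings and background corrections (all but median centring), with limma adjusted p of 0.11 to 0.353 and a change down to 0.13 with spike-in scaling. The 4 h call was lost in 4 of those 6, with limma adjusted p of 0.0571 to 0.0895 and changes of 0.34 to 0.50. The direction held in all 20 alternatives.

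Ftl1, the chain that helps the iron core form, had relative signals of 95.4 and 86.1 untreated, 113.1 and 107.4 at 2 h, and 127.4 and 117.0 at 4 h. With the scaling reported the values were higher at each later time without overlap between groups, but the 4 h minus 2 h difference of 0.15 did not pass (limma adjusted p 0.255). Without scaling the 2 h change was -0.0551. The change was 0.28 ± 0.08 at 2 h (limma adjusted p 0.0564) and 0.43 ± 0.08 at 4 h (1.35-fold, limma adjusted p 0.0167), so Ftl1 rose at 4 h. With slide as a block it passed at 2 h too (limma adjusted p 0.0147). The 4 h call was lost without untreated replicate 2 or 4 h replicate 1 (limma adjusted p up to 0.0766), and with no filter on dim probes (limma adjusted p 0.0594). It was also lost under all 6 other scalings and background corrections, with changes from 0.16 to 0.29 and limma adjusted p of 0.0574 to 0.241. Ftl1 has a near-identical copy, listed on the array as Ftl2 and in RefSeq as Ftl2-ps, and the probes cannot be taken to read one and not the other. The probe of that copy gave 0.31 ± 0.13 at 2 h and 0.41 ± 0.13 at 4 h and did not pass (limma adjusted p 0.118 and 0.0586). With slide as a block it passed at both times (limma adjusted p 0.0156 and 0.00832).

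Tfrc, the receptor that brings in transferrin-bound iron, was measured in 10 spots per array, with a coefficient of variation between spots of 3.1% to 4.59%. Its relative signal was 1.22 and 1.27 untreated, 1.48 and 1.46 at 2 h, and 1.41 and 1.42 at 4 h. Both treated pairs lay above the untreated pair, by a margin that is small beside that of Hmox1. The change was 0.24 ± 0.05 at 2 h (1.18-fold, limma adjusted p 0.027) and 0.19 ± 0.05 at 4 h (1.14-fold, limma adjusted p 0.0466). Leaving out any 1 of the 6 arrays ended both calls, with limma adjusted p of 0.0509 to 0.137 at 2 h and 0.0945 to 0.212 at 4 h. Tested as a probe among all 25874 probes tested rather than as a gene, Tfrc did not pass at 4 h (limma adjusted p 0.0561). Of the 8 member probes 3, 4 and 1 passed in the 3 comparisons, against 35.7%, 40.6% and 28.1% of all probes tested. The dim Blvra probe among the 8 was not tested. The sign of both changes turned without scaling (-0.10 and -0.07) and with spike-in scaling (-0.21 and -0.07).

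**Figure D2:**
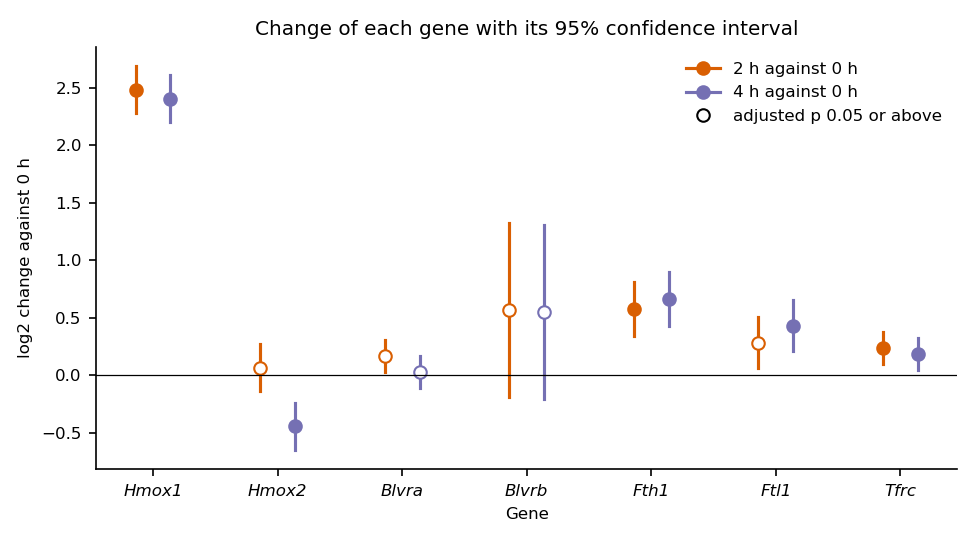
Change of each gene at 2 h and 4 h against untreated cells (log2, points) with its 95% confidence interval (lines), from the model of all 6 arrays, with open points where the adjusted p was 0.05 or above. Hmox1 stands at 2.48 and 2.41, Hmox2 at 4 h is the single point below 0, and the intervals of Blvrb run from about -0.19 to 1.32 at 2 h.

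The 75th percentile of signal was 826 and 883 in untreated samples and 674 to 754 in treated ones, so the choice of scaling bears on every small change here. With the scaling reported, 60.8% of all calls at 2 h and 57.2% at 4 h were increases. Quantile normalization gave 44.1% and 45.8%, and median centring 32.5% and 35.7%. Normexp with the 75th percentile gave 52.2% at 2 h and 64.0% at 4 h, the latter above the reported share. Unscaled signals gave 21.1% and 24.4%, and scaling on 7 spike-in probes 13.7% and 24.3%. For 4 h against 2 h the reported share was 44.8%, and it was 56.0% with median centring, 58.6% unscaled, 75% with spike-in scaling and 76.0% with normexp and the 75th percentile. The median of all genes moved too, from 0.12 to -0.34 at 2 h with spike-in scaling and from 0.07 to -0.20 at 4 h. With normexp and the 75th percentile it was 0.134 at 2 h and 0.175 at 4 h. Hmox1, Fth1 and Blvrb kept a positive change at both times under all 6 other scalings and background corrections, and Ftl1 and Hmox2 kept their direction at 4 h. With spike-in scaling Hmox1 had a change of 2.03 at 2 h, where the median change of all genes was -0.335. Blvra, Tfrc, Ftl1 at 2 h and Hmox2 at 2 h took either sign. With spike-in scaling Hmox1 was the single gene of the 7 to rise at 2 h, and Blvra, Hmox2 and Tfrc fell. Without scaling Hmox1 rose and Hmox2 fell at both times, and the other 5 did not pass.

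**Figure D3:**
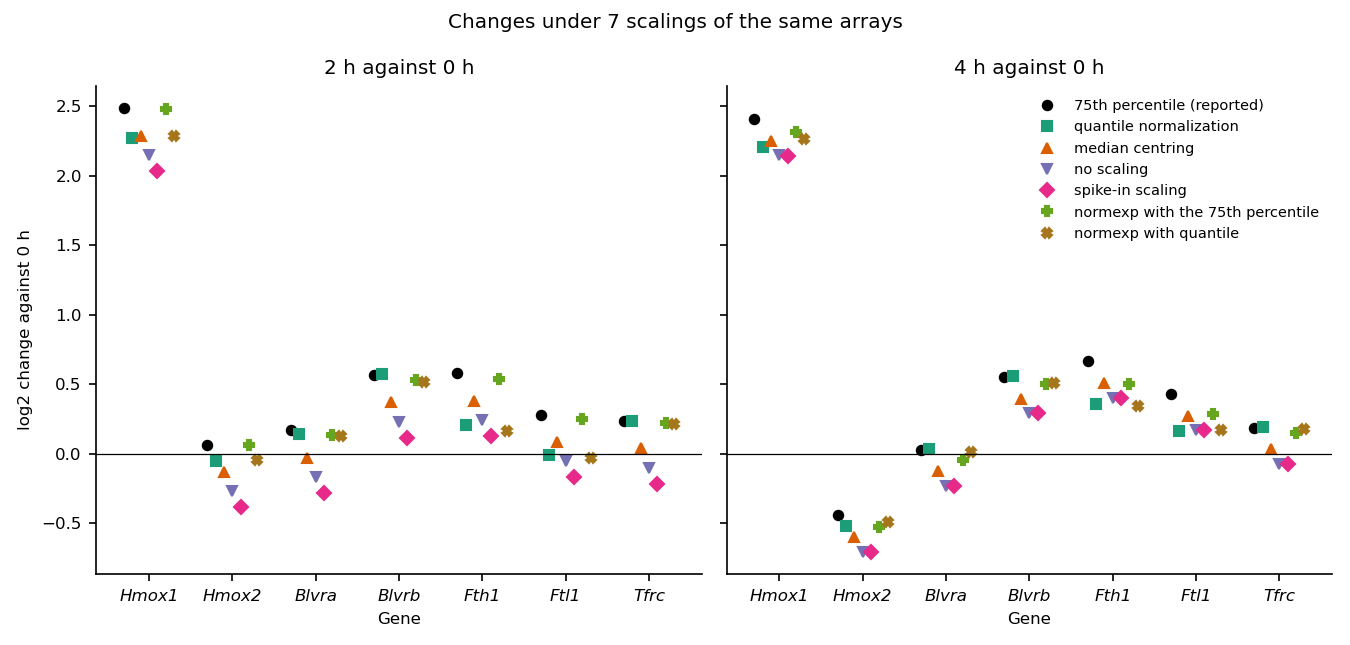
Change of the 7 genes (log2 against 0 h) at 2 h (left) and 4 h (right), each computed 7 times from the same 6 arrays with the scaling or background correction named in the legend. Hmox1 stays between 2.03 and 2.48 at 2 h, Fth1 and Blvrb stay above 0, and Tfrc and Blvra cross 0.

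Other genes of heme and iron metabolism were taken from a list of 62 genes, of which 55 were tested and 7 were not above background often enough (Steap4, Lcn2, Ftmt, Hamp, Hamp2, Hjv and Tmprss6). At 2 h, 10 rose and 3 fell, 23.6% of those tested against 39.1% of all genes, with a median change of 0.13. At 4 h, 10 rose and 9 fell, 34.5% against 43.2%, with a median of 0.05. Between the treated times 5 rose and 9 fell, 25.5% against 29.9%. The balance of rises and falls depends on the scaling: with spike-in scaling 3 rose and 31 fell at 2 h, 5 rose and 22 fell at 4 h, and 10 rose and 1 fell between the treated times. Without scaling 3 rose and 13 fell at 2 h, 4 and 18 at 4 h, and 4 and 4 between the treated times. Median centring gave 4 and 4, 5 and 13, and 6 and 3, and quantile normalization 5 and 3 at 2 h and 8 and 11 at 4 h. With slide as a block 21 genes passed at 2 h and 22 between the treated times. For the genes of this list named below, the sign of each change called held under the 6 other scalings and background corrections unless said otherwise. Keap1, Slc48a1, Slc11a2, Slc39a14, Abcg2 and Pgrmc1 were named after their values were seen. Leaving out each array in turn kept all calls of Nfe2l2, Mafg, Hpx and Slc48a1 against untreated cells, the 4 h call of Flvcr1, and the 2 h calls of Slc40a1, Fbxl5 and Slc25a28, in 6 of 6 fits. The 2 h call of Alas2 held in 3 of 6, and the 4 h calls in 4 (Tfr2), 3 (Fech, Fbxl5), 2 (Steap2) and 1 (Alad, Slc11a2) of 6.

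Of 4 regulators of Hmox1, 2 rose at both times and 0 fell, while 23.8% of all genes rose at 2 h and 24.7% at 4 h. Nfe2l2, the transcription factor that switches on Hmox1 under oxidative stress, had relative signals of 8.48 and 8.39 untreated, 12.5 and 12.7 at 2 h, and 14.3 and 14.4 at 4 h. Its change was 0.58 ± 0.05 at 2 h (limma adjusted p 0.00187) and 0.77 ± 0.05 at 4 h (limma adjusted p 0.00105), and its other 3 probes rose by 2.44, 0.62 and 0.85 at 2 h. At 2 h the call held in 3 of the 6 other scalings and background corrections, with a change down to 0.13 with spike-in scaling, and at 4 h in 6 of 6. Mafg, a small Maf partner of that factor, had relative signals of 4.82 and 4.84 untreated, 10.3 and 9.19 at 2 h, and 9.04 and 9.05 at 4 h, which is a rise of 1.01 ± 0.07 and 0.91 ± 0.07. Bach1, the heme-sensing repressor of Hmox1, gave 1.34 and 1.17, then 2.45 and 1.58, then 1.28 and 1.46. Its 2 h samples were the highest but lay far apart, and the change of 0.65 ± 0.23 did not pass (limma adjusted p 0.0849). Keap1, which marks the Nfe2l2 protein for degradation, had changes of -0.09 and -0.14 and did not pass.

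Of 9 heme synthesis genes, 1 rose and 0 fell at 2 h, and 0 rose and 3 fell at 4 h. Of all genes 23.8% rose and 15.3% fell at 2 h, and 24.7% rose and 18.5% fell at 4 h. Alas1, the rate-limiting enzyme of heme synthesis outside red cells, did not pass (-0.04 ± 0.12 at 2 h and 0.16 ± 0.12 at 4 h), and with slide as a block it passed at 4 h (limma adjusted p 0.0368). Among those that fell at 4 h were Alad and Fech, enzymes of an early and the last step. Fech, which puts iron into heme, had relative signals of 2.94 and 3.12 untreated, 2.83 and 3.09 at 2 h, and 2.31 and 2.29 at 4 h, a 4 h change of -0.40 ± 0.07 (limma adjusted p 0.0129). On this probe the 4 h samples lay below the others, as they did for Alad (-0.36 ± 0.09). The other Fech probe gave -0.18 at 4 h and did not pass (limma adjusted p 0.0844). The gene counted as rising at 2 h was Alas2, the red cell form of Alas1. It was well above background only on the 2 h arrays and entered the test through them, so its count as rising rests on that filter. With the scaling reported, its 2 h level was at least 1.45-fold that of untreated cells. Under the 6 other scalings and background corrections its change went down to 0.26 (log2), and the call held in 3 of them.

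Of 9 heme transport and binding genes, 4 rose and 0 fell at 2 h, and 4 rose and 0 fell at 4 h. Of all genes 23.8% and 24.7% rose, and over 9 genes the count by itself is no result about them. The 2 h changes of Abcg2 and Pgrmc1, counted as rising, turned to -0.25 and -0.09 with spike-in scaling. That of Abcg2 was negative without scaling too. Neither of these 2 h calls held in all the fits that left out 1 array. Hpx, hemopexin, the plasma protein that binds free heme, had the largest change of the list. Its relative signal was 0.0622 and 0.0700 untreated, 0.534 and 0.465 at 2 h, and 0.437 and 0.375 at 4 h. Treated values lay far above untreated ones, with changes of 2.92 ± 0.12 and 2.62 ± 0.12 (limma adjusted p 0.000343 and 0.00051). Under the 6 other scalings and background corrections the changes went down to 1.71 at 2 h and 1.46 at 4 h. Both calls held in 6 of 6, and the size of the rise depended on the setting. Slc48a1, which carries heme across the endosomal membrane, rose by 0.54 ± 0.08 at 2 h and 0.70 ± 0.08 at 4 h. Its 2 h call held in 2 of the 6 other scalings and background corrections, with a change down to 0.09, and its 4 h call in 6 of 6. Flvcr1, a heme exporter, had a 2 h change of 0.34 ± 0.13 that did not pass (limma adjusted p 0.0959), and that passed with slide as a block (limma adjusted p 0.0117). It rose by 0.81 ± 0.13 at 4 h on its brightest probe, while another of its probes gave -1.27 at 4 h, so the direction for this gene depends on the probe.

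Of 11 iron uptake genes tested, each on its brightest probe, 0 passed at 2 h, and 1 rose and 3 fell at 4 h. These counts stand beside the small rise of Tfrc. Less bright probes of 2 of these genes did pass at 2 h, among all probes tested. Another Slc39a14 probe gave 0.69 (limma adjusted p 0.00529) and another Slc11a2 probe -0.46 (limma adjusted p 0.00672). Both were fitted with the scaling reported only. Of all genes 39.1% passed at 2 h, and 24.7% rose and 18.5% fell at 4 h. Tfr2, the second transferrin receptor, had relative signals of 0.0979 and 0.0837 untreated, 0.0989 and 0.0833 at 2 h, and 0.0459 and 0.0557 at 4 h. It fell by 0.84 ± 0.15 on the log2 scale at 4 h (limma adjusted p 0.0134), near the background limit, since 1 of the 2 4 h arrays was above background, and the sign turned with normexp and the 75th percentile. Steap2, a ferric reductase, fell by 0.46 ± 0.11 on the log2 scale at 4 h, and its other probe fell by 0.64. Slc11a2, which carries ferrous iron out of the endosome, rose by 0.31 ± 0.08 at 4 h on its brightest probe. Its other probes gave 0.29 and -0.97, so the direction depends on the probe.

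The iron exporter and an iron sensor fell at 2 h. Slc40a1, ferroportin, the iron exporter, had relative signals of 1.49 and 1.41 untreated, 0.942 and 0.954 at 2 h, and 1.54 and 1.47 at 4 h. It fell by 0.61 ± 0.06 on the log2 scale at 2 h (limma adjusted p 0.00266), differed by 0.05 ± 0.06 from untreated at 4 h (limma adjusted p 0.532), and rose by 0.67 ± 0.06 between the treated times (limma adjusted p 0.00379). Fbxl5, which marks the iron regulatory protein Ireb2 for degradation when iron is plentiful, had 0.998 and 0.955, then 0.470 and 0.489, then 0.749 and 0.794. It fell by 1.03 ± 0.06 on the log2 scale at 2 h (limma adjusted p 0.000797) and by 0.34 ± 0.06 at 4 h. Its other 2 probes gave -0.39 and -0.73 at 2 h but -0.21 and 0.32 at 4 h, so the 2 h fall was shared by all 3 probes and the 4 h one was not. Slc25a28, a mitochondrial iron importer, fell by 0.75 ± 0.11 on the log2 scale at 2 h and differed by -0.12 ± 0.11 at 4 h. The iron regulatory proteins themselves, Aco1 and Ireb2, did not pass at either time (0.15 and -0.03 at 2 h, 0.10 and 0.24 at 4 h). With slide as a block Aco1 passed at 2 h (limma adjusted p 0.0396) and Ireb2 at 4 h (limma adjusted p 0.0257), and these changes turned negative in 5 and 2 of the 6 other scalings and background corrections. Ncoa4, which delivers ferritin for breakdown, had changes of 0.03 and 0.02 and did not pass.

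The genes whose course over the 6 arrays lay closest to each member were found by the root mean square difference of their log2 values from the untreated mean, over 12255 genes above background on all arrays, as a description with no test. Closest to Hmox1 were Acsbg1 (0.0785), Cd164l2 (0.109), Mdm2 (0.123), Foxj1 (0.125) and Vwce (0.131), with 2 h changes from 2.28 to 2.61. Closest to Hmox2 were Tpst1 (0.0194), Shkbp1 and Exoc6b, with 4 h changes of -0.46, -0.43 and -0.49. Closest to Fth1 were Naa11 (0.0507), Srgap1 and Map2k3, with 4 h changes of 0.63, 0.70 and 0.71. Ccs, a copper chaperone, was closest to Ftl1 (0.0151), and Trnt1 to Tfrc (0.0185). Atp7b, a copper transporter, was closest to Blvrb at a distance of 0.117, and Ascc3 to Blvra at 0.00795.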

How the data were processed

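RNA labelled with Cy3 was measured on 6 one-colour arrays, 2 per time. Per the file headers, the authors used a G2505B scanner, with spot signals read by Feature Extraction 9.5.3.1 (protocol GE1-v5_95_Feb07). The deposited files hold fluorescence intensity per spot, background-corrected by that software, and the deposited value table holds the same intensity within 0.0005. An aligner or genome does not apply. Values here are log2 of the deposited processed intensity minus the array's 75th percentile over 43379 non-control spots. Flagged outlier spots were left out, repeated spots averaged, and probes named through RefSeq accessions or symbols. The brightest probe stood for a gene, and the 17184 genes whose probe passed the software's background test on both arrays of any group were tested with limma 3.58.1 in R 4.3.3, with lmFit and eBayes over 6 arrays (3 residual degrees of freedom) and Benjamini-Hochberg adjustment. The fit was tested on simulated data. A dim group's fold is a lower bound, from the lowest signal well above background.

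The members and lists were chosen with earlier results of these data known. Named genes were the members, those past the test with up to 4 largest changes per direction and time, and the 5 closest to each member. A further 10 genes of the list were named whatever their result. Slide and replicate number coincide. Deviations of same-numbered samples correlated at 0.243, 0.196 and 0.241, and the labels do not say what the number marks, so slide was a block in an alternative. The 20 alternatives changed scaling, background correction, filter, probe rule, model or samples. Some genes of the lists are counted but not reported here by name.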

Additional observations from a re-analysis of the deposited data

Results flagged for a closer look

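By a test of the difference itself, in which the untreated samples cancel, 1 of the 7 genes differed between 2 h and 4 h (limma, adjusted p under 0.05). Of the 55 listed genes tested 14 did so too, against 29.9% of all genes. Described here are 9 flagged genes, each past this test, and Slc11a2, which also passed. Of the heme oxygenases, Hmox2 had a difference of -0.51 (4 h minus 2 h), while that of Hmox1 was -0.08 and did not pass. Alad and Fech of heme synthesis had differences of -0.41 and -0.36. Of 11 iron uptake genes tested 1 rose and 5 fell between the treated times on their brightest probes. Tfr2 and Steap2 had differences of -0.84 and -0.52, and Slc11a2 had 0.53 on its brightest probe (limma adjusted p 0.0114) and -0.51 and 0.15 on others. Flvcr1 was 0.48 higher at 4 h on its brightest probe, and its other probe gave -0.79. Slc40a1, Fbxl5 and Slc25a28, which all fell at 2 h, were higher at 4 h than at 2 h by 0.67, 0.69 and 0.63. These are values of the brightest probes. The other Fbxl5 probes gave 1.06, which passed, and 0.19, which did not (limma adjusted p 0.00407 and 0.177). The differences of Slc40a1, Fbxl5 and Slc25a28 stayed positive, and those of Hmox2 and Steap2 negative, under all 6 other scalings and background corrections. That of Tfr2 turned to 0.19 with normexp and the 75th percentile, and only 1 of its 2 4 h arrays was above background. Leaving out each array in turn, the call for the difference held in 6 of 6 fits for Slc40a1 and Fbxl5, 4 for Hmox2 and Tfr2, 3 for Steap2 and Slc25a28, 2 for Fech, 1 for Alad and 0 for Flvcr1 (limma adjusted p 0.0667 to 0.18). Groups of 2 arrays are too small for a check on single outlying samples.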

How the results depend on the processing

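Hmox1 passed at both times in all 20 alternatives, Fth1 in 14 (2 h) and 16 (4 h), Ftl1 at 4 h in 11, Hmox2 at 4 h in 18, and Tfrc in 9 and 6. Where a value moved or turned, the cause was not tested. The members called at 2 h (3) became 5 with an intensity trend, 1 with normexp and the 75th percentile, 6 with the replicate block and 1 to 2 without 1 array; those at 4 h (5) became 3 with median centring, quantile normalization, normexp with quantile or no filter on dim probes, 2 without scaling, 1 with normexp and the 75th percentile and 3 to 4 without 1 array; and between the treated times (1) 0 with no filter or with normexp and the 75th percentile, 2 with normexp and quantile or spike-in scaling, and 0 to 1 without 1 array. Of the wider list 13 genes passed at 2 h, and 8 with median centring, quantile normalization or no filter, 4 with normexp and the 75th percentile, 34 with spike-in scaling, 21 with the replicate block and 7 to 12 without 1 array. At 4 h 19 passed, and 7 with no filter or with normexp and the 75th percentile, 11 with only the groups compared and 7 to 13 without 1 array. Between the treated times 14 passed, and 8 with the mean of all probes or no scaling, 9 with median centring or only the groups compared, 3 with no filter, 4 with normexp and the 75th percentile, 22 with the replicate block and 2 to 9 without 1 array. Of all genes, 6724 passed at 2 h, and 1557 with normexp and the 75th percentile, 10661 with spike-in scaling, 4038 with no filter and 3600 to 6114 without 1 array. At 4 h 7416 passed, and 2366 with normexp and the 75th percentile, 4553 with no filter and 4330 to 6143 without 1 array. Between the treated times 5145 passed, and 1027, 2486 and 2361 to 4197 in those settings.

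Signs turned as follows. With spike-in scaling, 2 h changes were -0.28 (Blvra), -0.17 (Ftl1), -0.39 (Hmox2) and -0.21 (Tfrc), 4 h changes -0.23 (Blvra) and -0.0744 (Tfrc), and 4 h minus 2 h 0.0503 (Blvra), 0.18 (Blvrb), 0.11 (Hmox1) and 0.14 (Tfrc). With no scaling they were -0.17 (Blvra), -0.0551 (Ftl1), -0.27 (Hmox2) and -0.10 (Tfrc) at 2 h, -0.23 (Blvra) and -0.0724 (Tfrc) at 4 h, and 0.0627 (Blvrb) and 0.0276 (Tfrc) for 4 h minus 2 h. With median centring they were -0.0294 (Blvra) and -0.13 (Hmox2) at 2 h, -0.13 (Blvra) at 4 h and 0.0271 (Blvrb) between treated times. The mean of all probes turned Blvra to -0.64, -0.0312 and 0.60 in the 3 comparisons, through its dim probe. Quantile normalization gave -0.0123 (Ftl1) and -0.0544 (Hmox2) at 2 h, normexp with quantile -0.03 and -0.0445, and normexp with the 75th percentile -0.0471 (Blvra, 4 h) and -0.0344 (Fth1, 4 h minus 2 h). Blvrb for 4 h minus 2 h ranged from -0.30 to 0.27 without 1 array. Besides the calls of Blvra, Blvrb and Ftl1 given above, the replicate block changed no call of a member. With 2 arrays per group their number limits the precision.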
